A study of Mus musculus with 8 samples.

Results

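The clustered protocadherins are cell-surface adhesion proteins of the cadherin superfamily that are encoded in 3 neighbouring gene arrays named alpha, beta and gamma. Each alpha or gamma member has its own promoter and its own large first exon, which encodes the extracellular and transmembrane part and is spliced to constant exons that all members of the array share. Beta members consist of a single exon of this kind. A neuron uses only some of the alternate members, and the resulting combination of surface proteins serves self-recognition of dendrites and axons, whereas the C types at the end of the alpha and gamma arrays are used more uniformly. In the hippocampus the family is known for roles in dendrite arborization, synapse formation and the survival of interneurons.

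Members were taken as every gene of the deposited count tables whose symbol is Pcdh followed by a, b or g, with an optional subclass letter and a number. The rule found 58 members among 24421 genes. There were 14 alpha members, 22 beta members and 22 gamma members, and 5 of the 58 were C types (Pcdhac1, Pcdhac2, Pcdhgc3, Pcdhgc4 and Pcdhgc5). The gamma member Pcdhgb8 is annotated as a transcribed pseudogene and was kept in all gamma values.

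The libraries came from hippocampus of C57BL/6J wildtype mice labelled male. Pregnant dams had received dexamethasone, a synthetic glucocorticoid, intraperitoneally at 1 mg/kg per day for 5 days from 14.5 days post coitum (offspring labelled IUGR, intrauterine growth retardation), or the same volume of normal saline (offspring labelled NS). Offspring were sampled on postnatal day 3 or in week 8, which gave the 4 groups NS and IUGR at postnatal day 3 and NS and IUGR at week 8, with 2 libraries each. The labels do not say whether the libraries of a group came from separate animals or litters or whether animals were pooled, so p-values measure the spread between these libraries only. No fetal weight is given, and growth restriction was therefore taken from the label alone.

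Total counts ranged from 13030277 to 18993050 per library, and the members together took from 0.0456% to 0.0699% of them. At these depths 3 counts, the limit that a count of 0 allows, correspond to 0.158 to 0.230 CPM, the count scaled to the library total. Both postnatal day 3 libraries numbered 2 went against their male label, with 4998 and 5130 counts of Xist and 34 and 74 counts over 4 Y-linked genes, against at most 81 and at least 2023 in the other 6 libraries. Both week 8 libraries numbered 2 also stood apart, with Rpph1, the RNA component of RNase P, at 0 and 2 counts, whereas it took 4.91% to 7.69% of all counts in the other 6. Of the 5 choroid plexus markers all were found, and their summed level was 78.4 and 6237 CPM (NS) and 3204 and 434.5 CPM (IUGR) in newborns and 6668 and 78.9 CPM (NS) and 63.6 and 61.7 CPM (IUGR) in adults. Erythrocyte markers (1 of 4 tested) summed to 0.89 to 72.5 CPM over the 8 libraries, with the highest value in NS library 1 of week 8. Neuron markers (5 of 5 found) summed to 3206 to 3543 CPM at postnatal day 3 and 3227 to 4879 CPM at week 8, and 6 of 6 markers of hippocampal fields to 517.3 to 650.6 and 441.9 to 822.5 CPM. The part of sex, library preparation and neighbouring tissue in the values below was not tested. Results between ages for the whole family and for the alternate alpha members are also given without the libraries numbered 2 of 1 age. Counts without overlap of libraries and the numbers of calls in beta and in gamma are given with all libraries only.

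The arrays lay in tandem on the plus strand of chromosome 18 of GRCm38 (mm10): alpha from 36930285 to 37188897, beta from 37264998 to 37521419 and gamma from 37661775 to 37841873. In the annotation, between 48.57% and 98.27% of an alpha transcript and between 41.71% and 66.79% of a gamma transcript were bases that another gene model on the same strand also holds, mainly the constant exons. Beta transcripts shared no such bases, except Pcdhb21, which shared 455 bases, or 9.67%. Whether a read in a constant exon was counted for 1 member, for several or for none is stated in no source used here. Pcdha4, Pcdha6 and Pcdha7, whose transcripts also hold the alpha constant exons, had 2, 2 and 3 counts over all libraries. Reads in these exons were thus not counted for every alpha member. Which exons the counts of an alpha or gamma member came from was not tested. First exons also resemble each other: among windows of 75 bases, a median of 10.27% in alpha, 1.14% in beta and 0% in gamma occurred in the transcript of another gene. For all 5 C types this share was 0%.

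Levels differed widely between members and were compared per kilobase of the deposited gene length. At postnatal day 3 the highest of the 58 was Pcdhgc3 with 13.7 CPM per kilobase, followed by Pcdhgc4 with 10.8 and Pcdhac2 with 8.35. At week 8 Pcdhgc3 with 13.0 and Pcdhgc5 with 12.5 CPM per kilobase led the family, and Pcdhac2 was again the third with 5.39. Pcdhgc4 stood at rank 2 of 58 at postnatal day 3 and at rank 15 at week 8, and Pcdhgc5 moved from rank 50 to rank 2. Pcdhac1, the first C type of the alpha array, was low at both ages, with 1.06 and 0.82 CPM per kilobase and rank 47 each time. The deposited length of alpha and gamma members includes the constant exons, so the length of the variable exon was also used for them. The ranks at postnatal day 3 were then 1 for Pcdhgc3, 2 for Pcdhgc4, 3 for Pcdhac2, 37 for Pcdhac1 and 44 for Pcdhgc5. At week 8 they were 1 for Pcdhgc3, 2 for Pcdhgc5, 3 for Pcdhac2, 11 for Pcdhgc4 and 36 for Pcdhac1.

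Among the alternate members the highest levels per kilobase at postnatal day 3 were found for Pcdha5 (2.49) and Pcdha9 (2.42) in alpha, for Pcdhb17 (5.43), Pcdhb19 (5.12) and Pcdhb20 (4.71) in beta, and for Pcdhga11 (5.40) in gamma. At week 8 they were Pcdha12 (1.14) and Pcdha5 (1.03), Pcdhb17 (4.62), Pcdhb9 (3.72) and Pcdhb14 (2.96), and Pcdhga11 (5.15). Because the lengths of alpha and gamma members include the constant exons, these values do not compare beta with the other arrays. Per kilobase of the first exon, Pcdha5 was at 5.53 and Pcdhga11 at 9.65 CPM at postnatal day 3, beside 5.43 for Pcdhb17 by its deposited length. The order of the 9 tested alternate alpha members was nearly kept between ages (Spearman's rho 0.95 across members), that of the 19 alternate gamma members less closely (rho 0.826), and that of the 21 tested beta members least of the 3 (rho 0.691). These coefficients describe members that share libraries, depth and, in part, exons. In beta, levels at postnatal day 3 tended to be higher toward the gamma side of the array (rho 0.579 with the order of 21 members), and the coefficient was 0.445 at week 8. The plot of levels by chromosome order shows this rise in beta and the low alternate alpha members beside Pcdhac2.

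**Figure D1:**
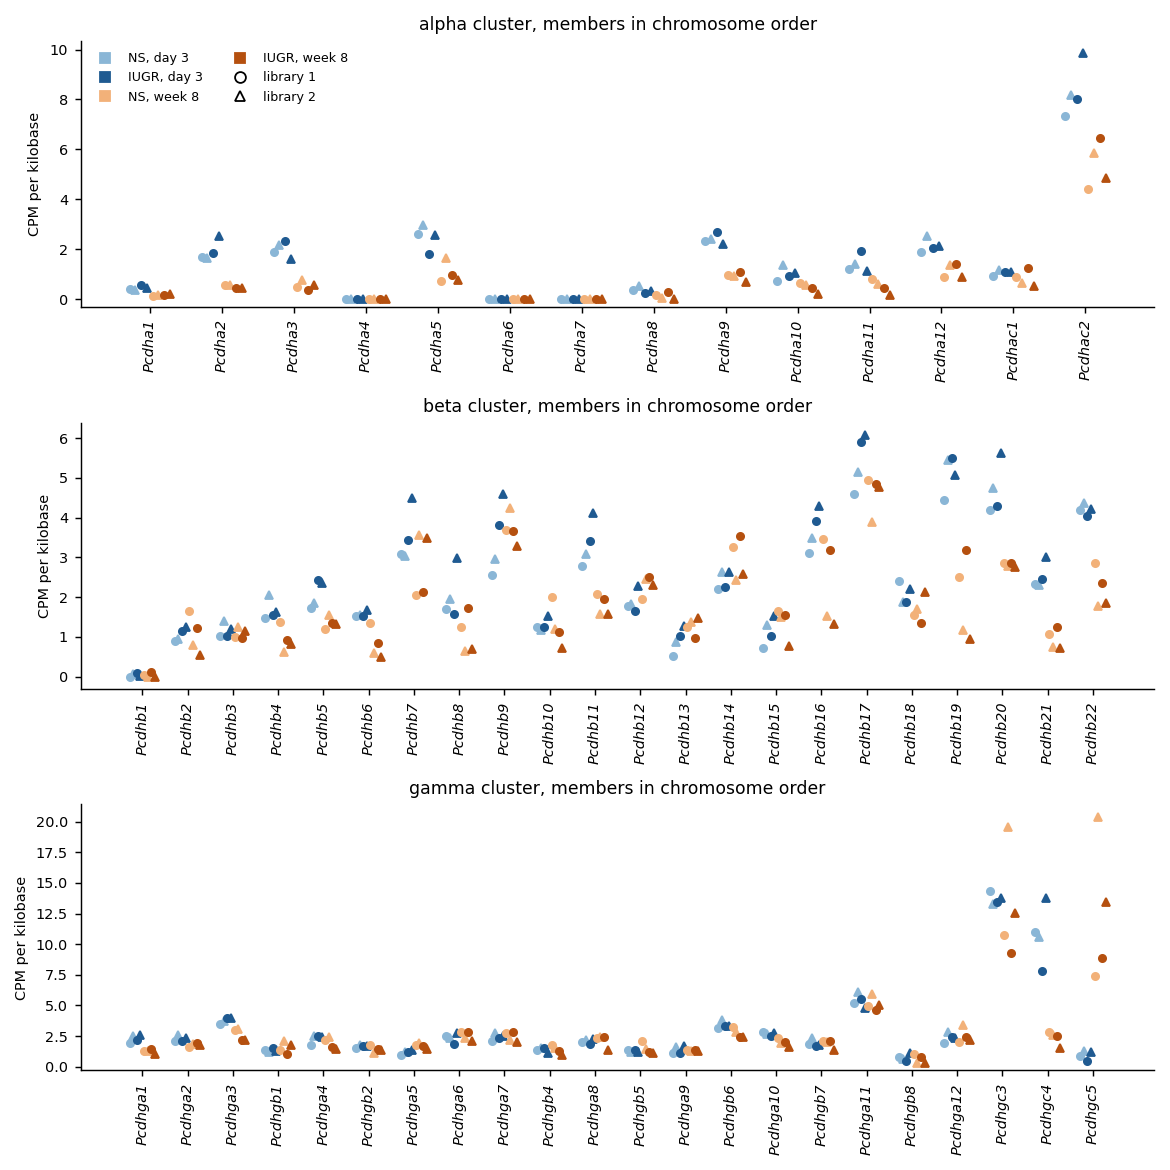
Level of each of the 58 members in each of the 8 libraries, in CPM per kilobase of deposited gene length, with members in chromosome order along the horizontal axis; colour gives the group and the marker the library number, and the vertical scale differs between panels. Pcdhac2 stands above the other alpha members at both ages. From postnatal day 3 to week 8 Pcdhgc4 falls toward the alternate gamma members, and Pcdhgc5 rises from a low level to near Pcdhgc3.

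Pcdha4, Pcdha6, Pcdha7 and Pcdhb1 were too low to be tested. Over all 8 libraries together Pcdha4 had 2 counts, Pcdha6 had 2 and Pcdha7 had 3. Their first exons are the 3 alpha first exons that start within 41, 6 and 9 bases of 3 further rows of the table, which run on to the end of the gamma array and are named Gm37013, Gm38666 and Pcdha7-g. The deposited lengths of these rows, less the 2119 bases of the gamma constant exons, were 2502, 2506 and 2476, next to first exons of 2503, 2507 and 2477 bases. These 3 rows held 6, 22 and 29 counts over all libraries, and none of them is a member by the rule. Low expression and the counting of an exon that 2 rows cover cannot be told apart for these 3 members.

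The main comparison of ages asked how the family differs between the newborn and the adult hippocampus. Averaged over NS and IUGR, 17 of the 54 tested members passed the test at week 8 against postnatal day 3 (edgeR's quasi-likelihood test, Benjamini-Hochberg adjusted p under 0.05 over 15999 genes), 16 of them lower and 1 higher. Over all genes tested 36% passed, 16.9% lower and 19.1% higher, so the family's share of calls was near that of all genes and its calls lay almost wholly on the lower side. By array, 8 of 11 alpha members fell, 5 of 21 beta members fell, and in gamma 3 of 22 fell and 1 rose. The median log2 fold change was -1.26 over the tested alpha members, -0.24 over beta and -0.01 over gamma, beside 0.02 over all genes. In whole tissue, fewer cells that use a gene and less RNA per cell cannot be told apart.

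Counting only whether the 4 week 8 libraries and the 4 postnatal day 3 libraries overlapped in CPM, 22 of 54 members were lower without overlap and 2 were higher, against 26% and 21.1% of all genes tested. The 22 comprised 9 of 11 alpha, 8 of 21 beta and 5 of 22 gamma members. The 2 higher ones were Pcdhgc5 and Pcdhga5, an alternate gamma member whose log2 fold change of 0.59 ± 0.20 (SE) did not pass (edgeR adjusted p = 0.05967). The count of calls depended on the postnatal day 3 libraries: it was 5 of 54 without NS library 1 or without NS library 2 of that age, 6 without IUGR library 1 or without IUGR library 2, and 8 without IUGR library 2 of week 8, and in these 5 fits the share over all genes was also lower, at 16.3%, 16.9%, 17%, 18.5% and 26.7%. Without the week 8 libraries numbered 2 the median log2 fold change of the family was -0.24, and without those numbered 1 it was -0.44. These 2 fits left 1 library in each week 8 group. Without both postnatal day 3 libraries numbered 2, which left 1 library in each group of that age, no member passed and 0.257% of all genes did, while 7 members had an unadjusted p under 0.05.

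**Figure D2:**
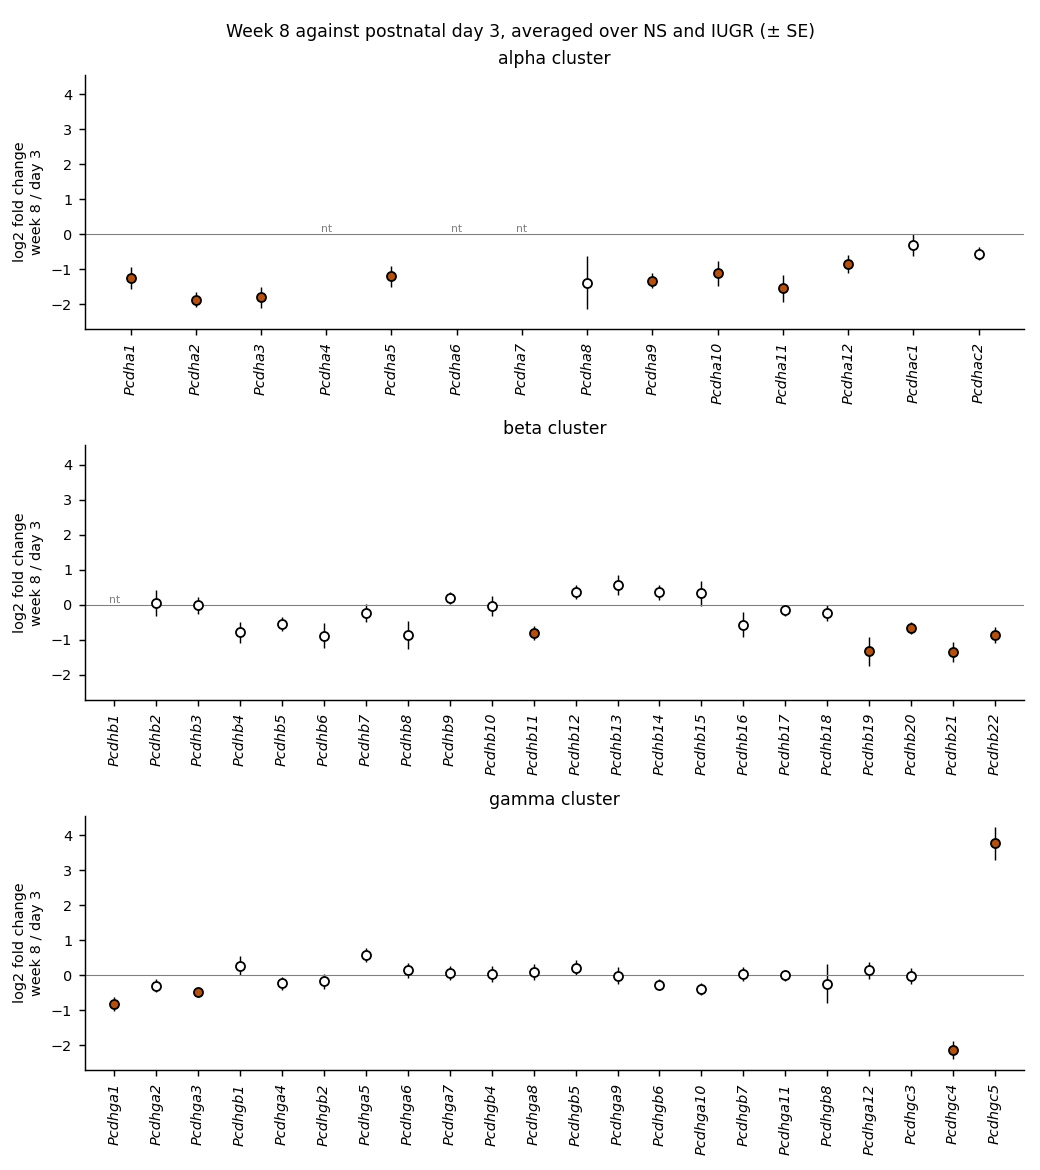
Log2 fold change of each member at week 8 against postnatal day 3, averaged over NS and IUGR, with its standard error as a bar; filled points passed the test and nt marks members too low to be tested. The tested alpha members lie below 0, the gamma members scatter around 0, and Pcdhgc4 and Pcdhgc5 lie at -2.13 and 3.77.

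The C types changed in different directions. Pcdhgc5, the last gene of the gamma array (37819546 to 37841873), was measured at postnatal day 3 at 4.26 and 6.17 CPM (NS libraries) and 2.32 and 5.51 CPM (IUGR libraries). Adult levels were 34.9 and 96.0 CPM (NS) and 41.9 and 63.2 CPM (IUGR). All 4 adult libraries were far above all 4 newborn libraries, and library 2 was the higher one in every group. The increase was 13.6-fold, a log2 fold change of 3.77 ± 0.46 (SE, edgeR adjusted p = 0.002013). It passed within NS (3.68 ± 0.65, edgeR adjusted p = 0.01746) and within IUGR (3.85 ± 0.65, edgeR adjusted p = 0.01393).

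Pcdhgc4, the C type directly before it (37815079 to 37841873) and the gamma isoform known for its part in the survival of cortical interneurons, went the other way. Newborn levels were 55.4 and 53.2 CPM (NS) and 39.2 and 69.3 CPM (IUGR), and adult levels were 14.0 and 13.1 CPM (NS) and 12.8 and 7.75 CPM (IUGR). The lowest newborn library thus stayed above the highest adult library. Pcdhgc4 fell 4.39-fold, by a log2 fold change of -2.13 ± 0.25 (SE, edgeR adjusted p = 0.001834), and passed in NS (-1.97 ± 0.36, edgeR adjusted p = 0.01855) and in IUGR (-2.29 ± 0.36, edgeR adjusted p = 0.01107). The averaged calls of Pcdhgc4 and Pcdhgc5 were kept when any single library was left out. Without both postnatal day 3 libraries numbered 2 the log2 fold changes were -1.93 for Pcdhgc4 and 4.27 for Pcdhgc5 and neither passed (edgeR adjusted p = 0.07707 and 0.06886).

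The ratio of Pcdhgc5 to Pcdhgc4 counts was between 0.0593 and 0.116 in the 4 newborn libraries and between 2.49 and 8.16 in the 4 adult ones. The 2 genes are the last 2 first exons of the same array and their transcripts end in the same constant exons. At week 8 the ratio was higher in both libraries numbered 2 (7.35 in NS and 8.16 in IUGR) than in both numbered 1 (2.49 and 3.28). Within the libraries numbered 1, where no library lacked Rpph1 and all held Y-linked counts, the difference between ages in log2(CPM + 1) was 2.77 in NS and 3.69 in IUGR for Pcdhgc5 and -1.91 and -1.54 for Pcdhgc4.

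Pcdhgc3, the first gamma C type and the highest member of the family, was at 67.4 and 62.4 CPM (NS) and 62.9 and 64.7 CPM (IUGR) in newborns. Adult libraries spread over 43.6 to 91.8 CPM, and in both groups library 2 was the higher one. The groups overlapped and the averaged log2 fold change was -0.02 ± 0.23 (SE, edgeR adjusted p = 0.9406). With the week 8 libraries numbered 2 left out it was -0.39, and with those numbered 1 left out it was 0.26. Each of these fits left 1 library in each week 8 group. No direction can therefore be given for Pcdhgc3. An antisense gene model covers 1513 bases of it, and the counts do not separate strands as far as the sources used here say. The 3 gamma C types together made up 35.2% to 41.0% of the gamma counts at postnatal day 3 and 33.8% to 51.1% at week 8.

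Pcdhac2, the last gene of the alpha array (37143678 to 37187663), had 39.8, 44.4, 43.5 and 53.5 CPM in the newborn libraries (NS 1 and 2, IUGR 1 and 2) and 23.9, 31.9, 35.0 and 26.3 CPM in the adult ones. All adult libraries lay below all newborn libraries, by a log2 fold change of -0.56 ± 0.18 (SE), and the adjusted p of edgeR's test, 0.05108, just missed the threshold. It passed with DESeq2 (adjusted p = 0.03497) and with limma voom (adjusted p = 0.04827). In edgeR it passed with upper-quartile scaling or library totals alone, but not with RLE scaling or without the expression filter. Because the alternate alpha members fell more, the share of Pcdhac2 among all alpha counts was 33.7% to 40.2% at postnatal day 3 and 41.9% to 52.7% at week 8. Pcdhac1 had 4.88 to 6.11 CPM in newborn and 2.74 to 6.56 CPM in adult libraries, which overlapped (-0.31 ± 0.32, edgeR adjusted p = 0.4737).

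**Figure D3:**
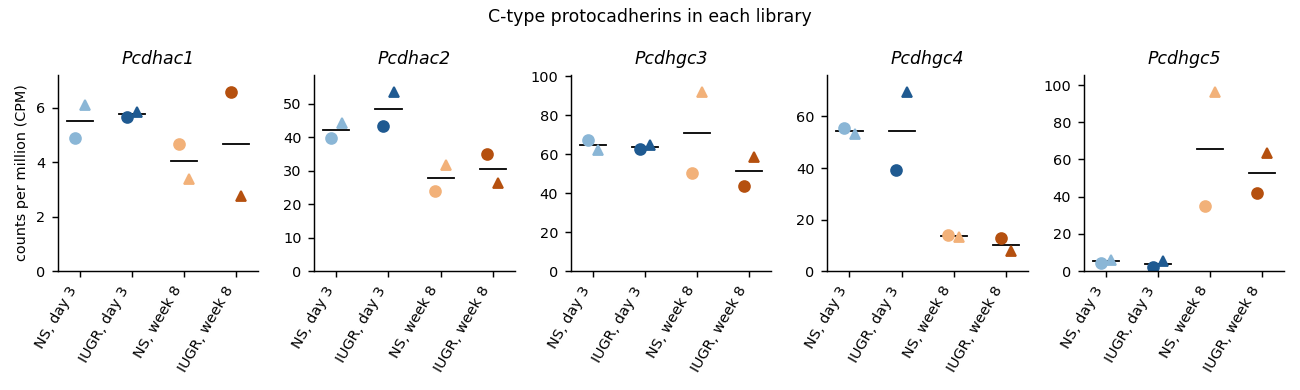
CPM of the 5 C types in each library, by group; points are libraries (circle, number 1; triangle, number 2), horizontal lines are the means of 2 libraries, and the vertical scale starts at 0 and differs between panels. Pcdhgc4 and Pcdhgc5 separate the ages in opposite directions, and Pcdhgc3 and Pcdhac1 overlap between ages.

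The alternate alpha members fell together. Of the 9 tested, 8 passed and were lower at week 8 (Pcdha1, Pcdha2, Pcdha3, Pcdha5, Pcdha9, Pcdha10, Pcdha11 and Pcdha12), with a median log2 fold change of -1.34 over the 9. Over all genes 16.9% passed as lower. The median was -1.18 without the week 8 libraries numbered 2 and -1.51 without those numbered 1. It was -1.39 without the postnatal day 3 libraries numbered 2. Each of these fits left 1 library in each group of 1 age. Leaving out single libraries gave between 3 and 9 of 9 (16.3% to 45.5% of all genes), with medians between -1.52 and -1.20, so the size of the decrease varied less than the number of calls. Within libraries of the same number, all 9 members with a difference were lower in NS libraries 1 (median -0.73 in log2(CPM + 1) over the 12 alternate members), while in IUGR libraries 1, 9 were lower and 2 higher (median -0.79).

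Pcdha2 showed the largest decrease of the array. Newborn levels were 9.15 and 8.85 CPM (NS) and 9.98 and 13.6 CPM (IUGR), against adult levels of 3.15 and 2.95 CPM (NS) and 2.30 and 2.40 CPM (IUGR). The ages were widely separated in both groups, with a 3.66-fold decrease (-1.87 ± 0.21, SE, edgeR adjusted p = 0.001495). Pcdha3 was at 9.84 and 11.3 CPM (NS) and 12.1 and 8.32 CPM (IUGR) in newborns and at 2.46 and 4.00 CPM (NS) and 1.89 and 3.02 CPM (IUGR) in adults, again without overlap (-1.81 ± 0.29, edgeR adjusted p = 0.005019). Pcdha9 ranged from 11.9 to 14.3 CPM at postnatal day 3 and from 3.70 to 5.75 CPM at week 8 (-1.34 ± 0.22, edgeR adjusted p = 0.005012).

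Pcdha11 ranged from 5.90 to 10.2 CPM at postnatal day 3 and from 0.82 to 4.22 CPM at week 8 (-1.55 ± 0.39, edgeR adjusted p = 0.0226). Its call was lost without either NS library of postnatal day 3 (adjusted p = 0.06853 and 0.08107), without IUGR library 1 of that age (0.0907) or without NS library 2 of week 8 (0.05284). An antisense gene model covers 2446 bases of its first exon, and since strand use in counting is not given, reads of the 2 strands cannot be told apart there. Pcdha5 and Pcdha12, the highest alternate alpha members at week 8, fell by 1.21 ± 0.31 and 0.85 ± 0.25 on the log2 scale (edgeR adjusted p = 0.02428 and 0.04068). Pcdha8, at 0.07 to 2.80 CPM one of the lowest tested members, was the exception, with overlapping ages and -1.38 ± 0.76.

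**Figure D4:**
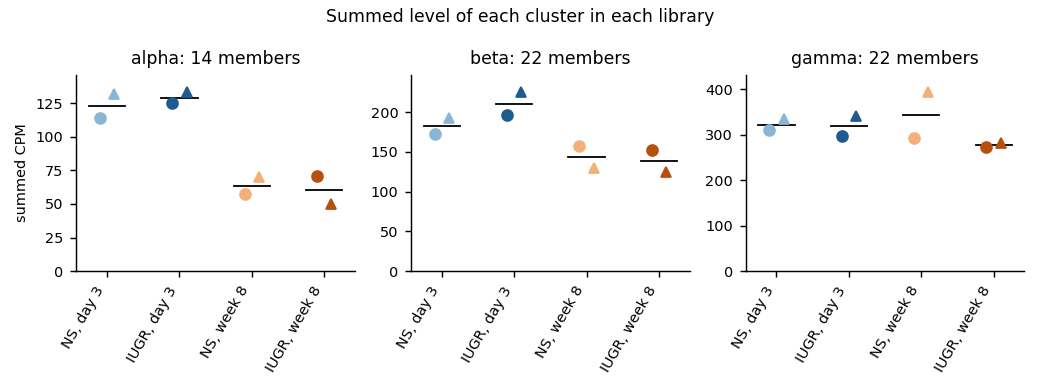
Summed CPM of the alpha, beta and gamma members in each library, by group; points are libraries (circle, number 1; triangle, number 2) and horizontal lines are means of 2 libraries. The alpha sums of the 4 adult libraries lie between 49.8 and 70.9 CPM, below the newborn range of 113.6 to 133.0 CPM, whereas the gamma sums overlap between ages.

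Summed over each array, alpha reached 113.6 and 131.8 CPM (NS) and 125.1 and 133.0 CPM (IUGR) in newborns, and 57.0 and 70.1 CPM (NS) and 70.9 and 49.8 CPM (IUGR) in adults. Beta had 172.4 to 224.8 CPM at postnatal day 3 and 124.6 to 157.2 CPM at week 8, and gamma 296.4 to 340.8 and 273.1 to 393.4 CPM. The alpha and beta sums thus separated the ages without overlap and the gamma sums did not. The number of equally abundant members that would give the same spread of counts (the exponential of the Shannon entropy) was 7.11 to 8.03 of 14 in newborn and 5.33 to 7.03 of 14 in adult alpha. It was 17.1 to 17.7 and 17.0 to 18.3 of 22 in beta, and 14.7 to 15.9 and 12.5 to 17.7 of 22 in gamma, so only in alpha did the 2 ranges not overlap. Over the alternate alpha members alone they did overlap (7.67 to 7.92 and 6.98 to 7.94), beside the larger share of Pcdhac2 in adults.

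In beta, 5 of 21 tested members fell and none passed as higher, beside 16.9% lower and 19.1% higher over all genes. Pcdhb21 was at 6.33 and 6.28 CPM (NS) and 6.69 and 8.16 CPM (IUGR) in newborns, and at 2.92 and 2.05 CPM (NS) and 3.38 and 1.92 CPM (IUGR) in adults. The adult libraries were all lower, and both libraries numbered 2 were the lower of their group (-1.35 ± 0.27, SE, edgeR adjusted p = 0.01131). Pcdhb19 ranged from 21.0 to 26.0 CPM in newborns and was at 11.8 and 5.58 CPM (NS) and 15.0 and 4.46 CPM (IUGR) in adults. Its averaged change was -1.33 ± 0.42 (edgeR adjusted p = 0.04716), but the difference in log2(CPM + 1) was -0.78 in NS and -0.75 in IUGR within libraries 1 and -2.02 and -2.19 within libraries 2.

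Such a split of the adult libraries by number was also seen in Pcdhb16, with 18.2 and 16.8 CPM in the libraries numbered 1 and 8.00 and 6.92 CPM in those numbered 2; this member was chosen after its values were seen. Pcdhb22 (-0.86 ± 0.22, edgeR adjusted p = 0.02286) and Pcdhb11 (-0.82 ± 0.20, edgeR adjusted p = 0.0198) fell with no overlap of ages, as did Pcdhb20 (-0.67 ± 0.17, edgeR adjusted p = 0.02347). The calls of Pcdhb19, Pcdhb22 and Pcdhb11 were each lost without any 1 of the 4 newborn libraries and without IUGR library 2 of week 8, that of Pcdhb19 also without NS library 2 of week 8 and with upper-quartile scaling (adjusted p = 0.05166), and that of Pcdhb21 without 3 of the 4 newborn libraries. Pcdhb17, the highest beta member at both ages, had 15.0 to 19.9 CPM in newborns and 12.7 to 16.2 CPM in adults, which overlapped (-0.16 ± 0.16, edgeR adjusted p = 0.4455). Pcdhb9 and Pcdhb14, high at week 8, had log2 fold changes of 0.20 ± 0.18 and 0.35 ± 0.21 and did not pass.

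Of the 19 alternate gamma members only Pcdhga1 and Pcdhga3, which lie at the start of the array, passed, both lower at week 8. Over all genes 16.9% passed as lower and 19.1% as higher, so this share was below that of all genes. Pcdhga1 was at 8.67 and 11.3 CPM (NS) and 10.1 and 11.8 CPM (IUGR) in newborns and at 4.59 to 6.42 CPM in adults (-0.82 ± 0.21, SE, edgeR adjusted p = 0.02465). Pcdhga3 had 16.4 to 18.9 CPM in newborns and 10.4 to 14.5 CPM in adults (-0.48 ± 0.15, edgeR adjusted p = 0.04217). Neither set of libraries overlapped, yet the call of Pcdhga3 was lost without any 1 of the 8 libraries (log2 fold change -0.46 to -0.50) and without the expression filter (adjusted p = 0.08285), and that of Pcdhga1 without any 1 newborn library or IUGR library 2 of week 8. Pcdhga11, the highest alternate gamma member, had 22.6 to 28.9 CPM in newborns and 21.8 to 28.1 CPM in adults (-0.00 ± 0.16, edgeR adjusted p = 0.9935). Antisense gene models cover 1381 bases of the first exon of Pcdhga11 and 406 bases of that of Pcdhga1. Reads of the 2 strands cannot be told apart there either.

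Within NS alone 5 of 54 members passed between ages (Pcdha2, Pcdha3, Pcdha9 and Pcdhgc4 lower, Pcdhgc5 higher), beside 14.1% of all genes (7.7% higher and 6.43% lower). Within IUGR alone 6 of 54 passed, the same 5 in the same directions and Pcdha11 lower, beside 16.8% of all genes (9.34% higher and 7.48% lower). With 5 of 54 and 6 of 54 the shares of the family were below those of all genes. The calls in NS were lost without either NS library of postnatal day 3 (0 of 54 each, beside 0.415% and 0.31% of all genes) and those in IUGR without either IUGR library of that age (0 of 54 each, beside 0.559% and 0.953%). The count in IUGR was 1 without IUGR library 2 of week 8, beside 5.49% of all genes, so calls were lost over all genes and not in the family alone. The 2 comparisons do not share libraries, and whether NS and IUGR differed in their change with age was tested as the difference of the IUGR effect between ages below.

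The comparison of treatments asked whether prenatal dexamethasone changed the family. At postnatal day 3 no member passed, 0 of 54, with 0% of all 15999 genes called by edgeR's quasi-likelihood test; 1 member and 96 genes had an unadjusted p under 0.05. With DESeq2 on postnatal day 3 alone no member passed either, beside 0.363% of all genes. The log2 fold changes of IUGR against NS ran from -0.70 to 0.72 over the members, and their standard errors from 0.20 to 1.02 with a median of 0.32. The median was 0.05 over the family, 0.23 over beta, where 17 of 21 members were above 0, 0.04 over alpha and -0.02 over gamma, beside 0.01 over all genes.

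Pcdhb9 had the smallest p of the family at postnatal day 3. NS libraries were at 7.77 and 9.02 CPM and IUGR libraries at 11.6 and 14.0 CPM, so both IUGR libraries were above both NS libraries. Its log2 fold change was 0.61 ± 0.25 (SE, edgeR unadjusted p = 0.04569, adjusted p = 1). Pcdhb13 was at 1.93 and 3.2 CPM (NS) and 3.80 and 4.68 CPM (IUGR; 0.72 ± 0.40, edgeR adjusted p = 1), and Pcdhb5 at 6.12 and 6.51 CPM (NS) and 8.62 and 8.32 CPM (IUGR; 0.42 ± 0.28, edgeR adjusted p = 1), again without overlap. In all, 12 of 54 members were higher in both IUGR libraries than in both NS libraries and 3 were lower, beside 19.7% and 16.6% of all genes. Of the 12, 9 were beta members. Within libraries 1 the median difference over the 22 beta members was 0.11 in log2(CPM + 1) and within libraries 2 it was 0.25. Meninges markers (0 of 5 called, 5 of 5 below 0) had a median log2 fold change of -0.90 in this comparison, with summed levels of 373.3 and 348.9 CPM (NS) and 209.0 and 215.3 CPM (IUGR). Endothelium markers (0 of 5 called, 4 of 5 below 0) had a median of -0.41, with sums of 85.2 and 72.5 CPM (NS) and 55.0 and 56.3 CPM (IUGR). Choroid plexus markers (0 of 5 called, 5 of 5 below 0) had a median of -0.76, with sums that overlapped. The part of these cell types in the beta values was not tested.

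At week 8 again 0 of 54 members passed, beside 0% of all genes by edgeR, with 0 members and 160 genes at an unadjusted p under 0.05. DESeq2 on week 8 alone called no member and 0.00511% of all genes. The log2 fold changes ran from -1.12 to 0.45, with standard errors from 0.21 to 1.12. The median was -0.08 over the family, -0.22 over gamma, where 18 of 22 members were below 0, 0.03 over beta and -0.01 over alpha, beside 0.02 over all genes. Without overlap of libraries, 12 members were lower in IUGR and 0 were higher, beside 9.01% and 4.08% of all genes. The 12 were Pcdha2, Pcdha10, Pcdha11, Pcdhb9, Pcdhb10, Pcdhga3, Pcdhga4, Pcdhga5, Pcdhgb4, Pcdhgb5, Pcdhgb6 and Pcdhgc4.

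Pcdha11 was at 4.22 and 3.11 CPM (NS) and 2.37 and 0.82 CPM (IUGR) at week 8, a log2 fold change of -1.12 ± 0.56 (SE, edgeR adjusted p = 1). Pcdhga4 was at 10.1 and 10.9 CPM (NS) and 7.24 and 6.72 CPM (IUGR; -0.51 ± 0.27, edgeR adjusted p = 1). Pcdhga3 was at 14.1 and 14.5 CPM (NS) and 10.4 and 10.3 CPM (IUGR; -0.39 ± 0.21, edgeR adjusted p = 1). Of the variable-exon windows of Pcdhga4, 38.04% also occur in another gene. In each of these 3 genes both IUGR libraries were below both NS libraries and the 2 libraries of a group lay close together in Pcdhga3 and Pcdhga4, but none passed. Within libraries 1 the median over the 22 gamma members was -0.11 in log2(CPM + 1), beside -0.05 over all genes, and within libraries 2 it was -0.31, beside -0.05. Endothelium markers had a median log2 fold change of -1.28 in IUGR at week 8 (5 of 5 below 0 and at an unadjusted p under 0.05, 0 of 5 called), with summed levels of 80.2 and 74.3 CPM (NS) and 39.6 and 28.2 CPM (IUGR). The 5 choroid plexus markers, also 5 of 5 below 0 with 0 called, had a median of -3.35. Their sums were 6668 and 78.9 CPM (NS) and 63.6 and 61.7 CPM (IUGR). Only NS library 1 thus stood far above the IUGR libraries, and NS library 2 lay near them. The 5 meninges markers were 5 of 5 below 0 with 0 called and a median of -0.47, and their sums of 314.1 and 75.5 CPM (NS) and 163.9 and 89.7 CPM (IUGR) overlapped. The part of these cell types in the gamma values was not tested.

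The C types showed no treatment difference that passed at either age. At postnatal day 3 their log2 fold changes lay between -0.42 and 0.20 and at week 8 between -0.40 and 0.29. The lowest at postnatal day 3 was Pcdhgc5, whose NS and IUGR libraries overlapped. Pcdhgc4 was lower in both IUGR than in both NS libraries at week 8 but its IUGR libraries at postnatal day 3 lay on either side of the NS libraries. A p that misses the threshold with 2 libraries a group does not show that the groups are alike.

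**Figure D5:**
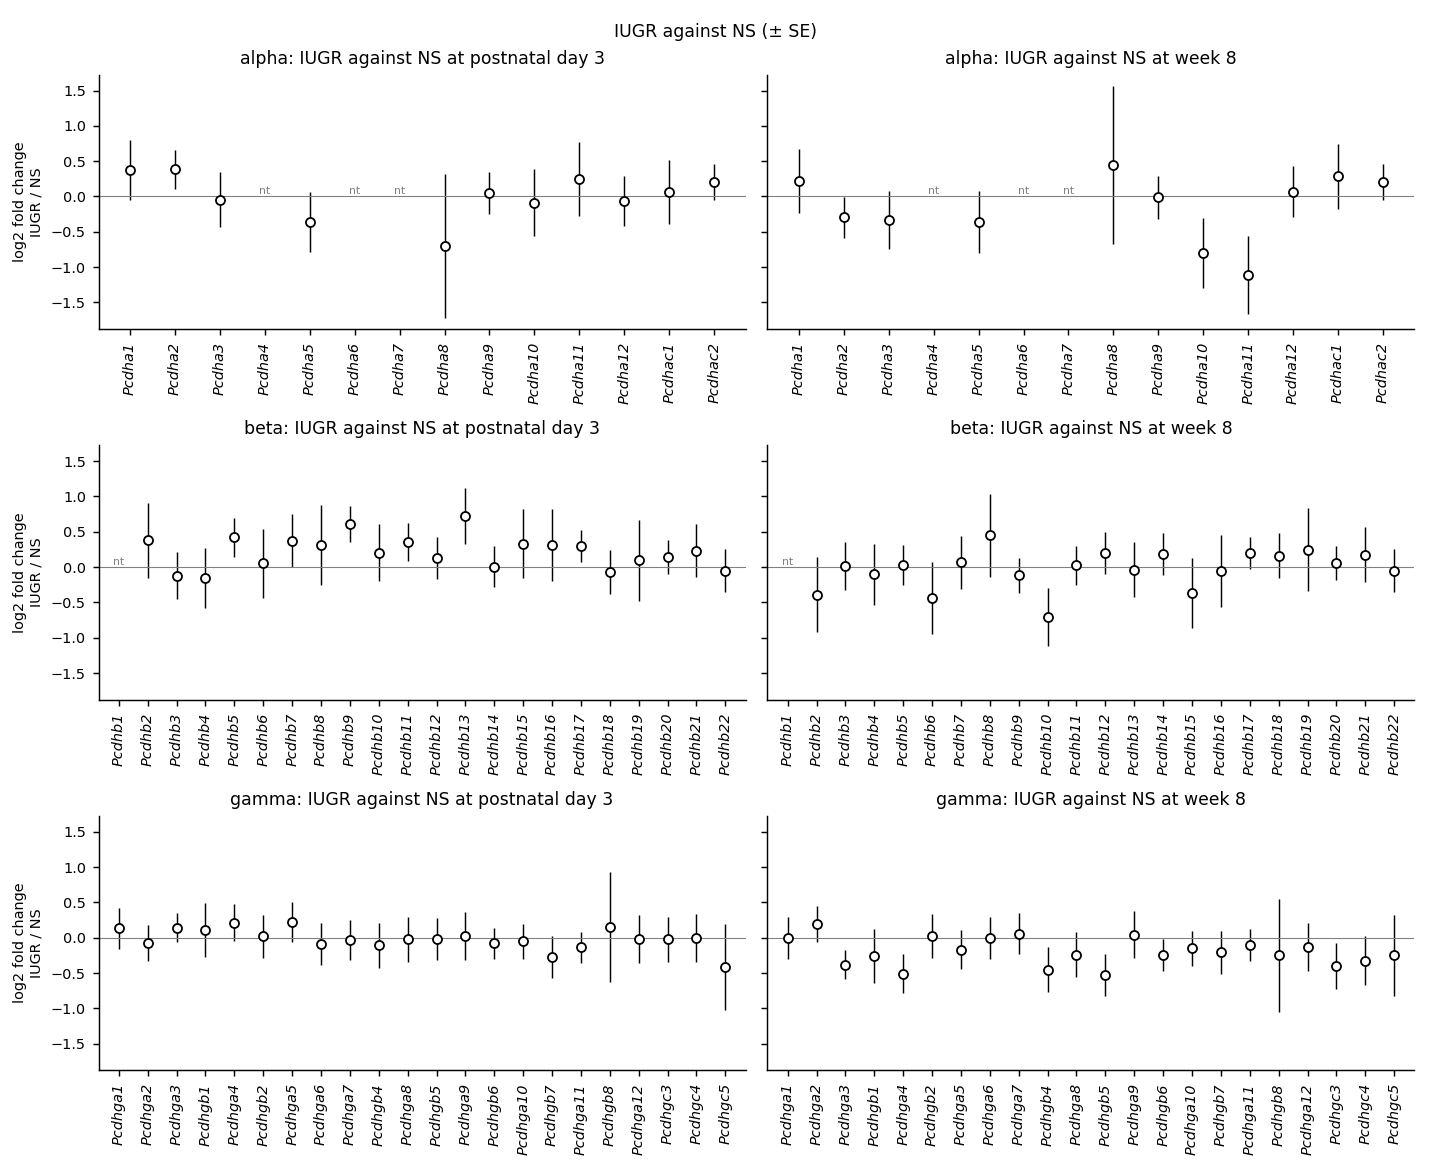
Log2 fold change of each member in IUGR against NS at postnatal day 3 (left) and week 8 (right), with its standard error as a bar; no point passed the test and nt marks members too low to be tested. Most beta points lie above 0 at postnatal day 3 and most gamma points lie below 0 at week 8, with bars that often cross 0.

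The difference of the IUGR effect between ages was called in 0 of 54 members, beside 0% of all genes by edgeR, and 0 members and 82 genes had an unadjusted p under 0.05. The smallest p of the family belonged to Pcdhb9 (difference of log2 fold changes -0.73 ± 0.35, SE, edgeR adjusted p = 0.9999), Pcdhga4 (-0.72 ± 0.38) and Pcdhga3 (-0.53 ± 0.29). Pcdhb9, Pcdha2 and Pcdhga3 were higher in both IUGR libraries at postnatal day 3 and lower in both at week 8. The differences between ages of these 3 genes did not pass either, the smallest unadjusted p being 0.07938.

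In related gene lists the share of calls between ages is read against the 36% of all genes called (19.1% higher and 16.9% lower). Of the 12 non-clustered protocadherins, which are single genes outside the arrays, 2 passed as higher at week 8 and 3 as lower, a share near that of all genes. Pcdh20 rose by 2.29 ± 0.28 on the log2 scale (SE, edgeR adjusted p = 0.001962), and Pcdh18 (-2.93 ± 0.51, edgeR adjusted p = 0.006746) and Pcdh12 (-3.15 ± 0.59, edgeR adjusted p = 0.008371) fell. Pcdh12, known from endothelium, had only 24 to 44 counts in newborn and 1 to 6 counts in adult libraries.

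Promoter choice in the arrays is known to depend on CTCF and cohesin, which join promoters to distant enhancers, and on DNA methylation and repressive chromatin, which silence promoters. Of the 21 listed regulators 20 were tested, 7 fell at week 8 and 0 rose, with a median log2 fold change of -0.54; the share of calls was near the 36% of all genes, of which 16.9% fell. They were the DNA methyltransferases Dnmt1 (-1.52 ± 0.16, SE, edgeR adjusted p = 0.001296), Dnmt3a (-1.58 ± 0.18, edgeR adjusted p = 0.00155) and Dnmt3b (-1.003 ± 0.30), the methylcytosine dioxygenases Tet1 (-2.13 ± 0.38, edgeR adjusted p = 0.007392) and Tet3 (-1.01 ± 0.24), the histone methyltransferase Setdb1 (-0.81 ± 0.15, edgeR adjusted p = 0.008889) and Smchd1 (-0.76 ± 0.23), a chromatin protein that represses the arrays. Ctcf had a log2 fold change of -0.20 ± 0.15 and the cohesin subunit Rad21 -0.13 ± 0.13, and neither passed. In IUGR against NS 0 of these 20 genes passed at either age.

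Of 16 listed cytoplasmic partners and effectors 7 rose at week 8 and 2 fell, beside 19.1% and 16.9% of all genes. Ptk2b, the kinase Pyk2 that binds the constant domains, rose by 4.08 ± 0.56 (SE, edgeR adjusted p = 0.002888), and Cyfip2 (1.601 ± 0.27, edgeR adjusted p = 0.005626) and Nckap1 (1.22 ± 0.22, edgeR adjusted p = 0.007206), subunits of the WAVE regulatory complex, rose too, whereas Ptk2, the related kinase FAK, had 0.30 ± 0.19 and did not pass. Of 8 genes of the proteases that cleave the proteins none passed (edgeR; 1 at an unadjusted p under 0.05). Cell type markers moved with age as well: oligodendrocyte markers summed to 55.7 to 74.4 CPM in newborn and 3742 to 5133 CPM in adult libraries, with 5 of 5 higher, and astrocyte markers to 762.7 to 1046 and 2511 to 3053 CPM, with 4 of 5 higher. Microglia markers summed to 73.5 to 95.5 and 217.8 to 323.1 CPM, with 5 of 5 higher. Of 5 neuron markers 3 passed as higher and 1 as lower, and of 6 hippocampal field markers 4 as higher and 1 as lower. Endothelium markers had 1 of 5 higher and 2 lower, meninges markers 1 of 5 higher and 1 lower, and choroid plexus markers 0 of 5 called. Levels of the family are relative to all counts of the library, and the part of any change of cell makeup in the lower alpha and beta levels was not tested.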

How the data were processed

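For each age the authors deposited a table of raw gene counts with a gene length, and all values here come from these counts. Tools named, without their roles, by the submitters' processing notes are featureCounts 1.6.1, HISAT2 2.1.0, cutadapt 1.16 and SAMtools 1.9, with DESeq2 1.26.0 and the build mm10, and the labels' protocols give ribosomal RNA removal and random priming. How reads with several matches or in shared exons were treated, the strandedness and the annotation release appear in none of the sources used here.

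A model with a mean for each of the 4 groups was fitted to all 8 libraries in edgeR 4.0.16 (R 4.3.3, TMM scaling, default expression filter, 15999 genes, quasi-likelihood F test, Benjamini-Hochberg adjustment over all genes, threshold 0.05), after a check on simulated counts. The simulated counts had less spread than these libraries, and the same spread in all of them, so the check gives no error rate for these data. The SE is the size of the log2 fold change divided by the square root of F. CPM is the raw count scaled to the library total, and within-number differences use log2(CPM + 1). Exons and positions came from GENCODE M21 and RefSeq on GRCm38; all 58 members were found in both, 57 of them under the same symbol in GENCODE, where the model of Pcdha10 carries the name Pcdha11; both are named here as in the deposited tables. No sequence is printed.

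Named members are the C types, the 3 highest per kilobase of each array at each age, up to 4 called members per array and direction without overlap of ages, and the 3 with the smallest p for each IUGR comparison. For other lists up to 3 called genes with the smallest p were taken; Pcdhb16, Ctcf and others outside these rules were named after their values were seen. The result of the list of synaptic surface partners is not reported here. Members and lists were chosen with earlier results of these data known. Libraries of a group were no duplicates of each other. Chi-square per degree of freedom was 16.9 (NS) and 19.9 (IUGR) at postnatal day 3, and 337.3 (NS) and 264.9 (IUGR) at week 8. Libraries of a group thus differed far more at week 8. The 4 groups shared 1 estimate of the spread, so SEs and p-values at either age rest on the spread of both ages. Alternatives were other scalings and filters, DESeq2 1.42.0, limma 3.58.1 (voom), a replicate block, subsets of groups and left-out libraries; leaving out the libraries of 1 number at 1 age was added after the data were seen.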

Additional observations from a re-analysis of the deposited data

How the results depend on the processing

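With other scalings, filters, DESeq2 or voom, 16 to 19 members passed between ages averaged over NS and IUGR. With the replicate number as a block within each age, 27 passed averaged, 16 in NS and 19 in IUGR (63%, 47.9% and 50.4% of all genes); replicate differences of NS and IUGR correlated across genes at 0.818 at week 8 and -0.065 at postnatal day 3, and no label pairs the libraries. Leaving out single libraries gave 5 to 18 members averaged (16.3% to 45.5% of all genes), 0 to 6 in NS (0.31% to 23%) and 0 to 11 in IUGR (0.559% to 24.7%; a lone remaining library was taken to have the spread of the other groups). DESeq2 gave 10 members in IUGR (25.8%), edgeR on NS alone 1 (2%) and edgeR on IUGR alone 3 (9.75%), both with fewer samples. The next fits left 1 library in each group of 1 age, so their spread came from the other age alone. Leaving out the week 8 libraries numbered 2 gave 10 in NS (37.9%) and 14 in IUGR (41.4%), and leaving out those numbered 1 gave 30 averaged (69.4%), 17 in NS (57.8%) and 23 in IUGR (56%); the cause was not tested. Leaving out the newborn libraries numbered 2 gave 0 in each, with fewer samples.

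For IUGR against NS at each age and for the difference between ages, no alternative called a member. The direction of single members was followed only for the C types between ages and for members named for their result in a comparison. Among these, only Pcdhac1 and Pcdhgc3, which had not passed, reversed. Without the week 8 libraries numbered 2, Pcdhac1 was at 0.044 averaged and 0.30 in IUGR; with single libraries left out it ran from -0.96 (without IUGR library 1 of week 8) to 0.29 (without IUGR library 2) in IUGR. Pcdhgc3 was at 0.26 averaged without the week 8 libraries numbered 1 and at -0.35 in NS without those numbered 2; with single libraries left out it ran from -0.29 to 0.16 averaged (0.07 without IUGR library 1 of week 8) and from -0.36 to 0.53 in NS. The cause was not tested. Of the 689 alternative values of named members between ages, 536 were counted as the same. Tested values among them kept their direction and side of the threshold. Untested differences within libraries of 1 number were counted as the same by their distance from the main value, whatever their sign (Pcdhac1 in IUGR libraries 1 was at 0.18). Of the rest, 114 no longer passed, 17 newly passed, 14 untested values moved beyond their error and 8 reversed. Depth limits mainly Pcdha4, Pcdha6, Pcdha7 and Pcdhb1, which had too few counts to test.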
